A study of Homo sapiens with 24 samples.

Results

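The zinc finger cluster of 19q13.43 is a row of genes near the long-arm end of human chromosome 19, most of which encode Krüppel-associated box (KRAB) zinc finger proteins, with a few SCAN-domain members. Its members were taken from a fixed list of 52 gene symbols, and all 52 were found among the 25559 genes counted in each library. RNA-seq was done on 3 human T-cell lines: HH, grown from cutaneous T-cell lymphoma, PF382, from T-cell acute lymphoblastic leukemia, and TLOm1, from adult T-cell leukemia. Treated cells received AZA (azacitidine) or DAC (decitabine), added every 24 h for 96 h, and untreated cells were the reference. AZA was given to HH at 50, 125 and 250 nM, while PF382 and TLOm1 had 125, 250 and 500 nM; the doses of DAC were 5, 12.5 and 25 nM for all lines. Each dose of each line has 1 library, 24 with the untreated ones. The AZA and the DAC libraries form 2 sets of 12 whose titles begin with different prefixes, and for each line both sets contain 1 untreated library. No mutant or engineered line was used, and each line is an established tumor line.

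KRAB zinc finger proteins bind DNA, often within transposable elements, through an array of C2H2 fingers. Through the KRAB domain they recruit the corepressor TRIM28 and with it SETDB1, which methylates histone H3 at lysine 9. Their genes lie in clusters that grew by tandem duplication, and the promoters of several genes of 19q13.43 (ZNF154, ZNF671, ZNF582, ZNF471 and ZSCAN18 among them) are known for dense CpG methylation in carcinomas. AZA and DAC are cytidine analogs that trap DNA methyltransferases and lower CpG methylation as cells divide. DNA methylation was not measured in these libraries, so the values below are of RNA alone.

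The sequence just before the start of transcription is shown for 6 members that the results below turn on. ZNF772 is the member called with AZA, ZNF776, ZNF134 and ZSCAN4 are members that were silent in a line and reached 1 CPM there with drug, ZNF154 had the highest ratio of untreated PF382 to TLOm1, and ZNF274 was above untreated in every treated library. CPM is a gene's count scaled to a library total of 1000000. Each line holds the 250 bases before the start, 5′ to 3′ on the strand of the gene, from RefSeq on GRCh38.p14; capitals mark CG pairs, the sites that DNA methyltransferases modify.
ZNF772 (chr19:57477567-57477816, minus strand, 14 CG pairs): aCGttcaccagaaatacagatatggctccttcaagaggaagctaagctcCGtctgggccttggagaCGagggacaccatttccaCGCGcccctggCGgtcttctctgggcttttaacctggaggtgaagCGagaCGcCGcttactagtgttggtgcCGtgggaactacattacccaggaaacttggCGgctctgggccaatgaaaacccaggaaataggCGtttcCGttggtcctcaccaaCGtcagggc
ZNF776 (chr19:57746565-57746814, plus strand, 11 CG pairs): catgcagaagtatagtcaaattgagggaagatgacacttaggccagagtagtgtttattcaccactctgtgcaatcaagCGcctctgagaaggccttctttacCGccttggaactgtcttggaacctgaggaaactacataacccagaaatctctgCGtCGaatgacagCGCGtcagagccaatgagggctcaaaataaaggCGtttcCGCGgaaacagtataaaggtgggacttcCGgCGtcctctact
ZNF134 (chr19:57613992-57614241, plus strand, 17 CG pairs): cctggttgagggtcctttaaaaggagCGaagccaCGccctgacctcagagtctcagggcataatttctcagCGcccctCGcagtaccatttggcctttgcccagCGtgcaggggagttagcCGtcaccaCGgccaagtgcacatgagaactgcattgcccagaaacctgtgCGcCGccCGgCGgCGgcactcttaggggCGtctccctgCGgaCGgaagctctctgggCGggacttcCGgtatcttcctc
ZNF154 (chr19:57709205-57709454, minus strand, 11 CG pairs): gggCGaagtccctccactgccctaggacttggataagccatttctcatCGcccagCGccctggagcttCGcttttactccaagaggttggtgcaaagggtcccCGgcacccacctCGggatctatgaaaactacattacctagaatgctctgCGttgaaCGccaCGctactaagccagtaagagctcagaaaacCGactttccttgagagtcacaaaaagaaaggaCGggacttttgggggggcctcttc
ZSCAN4 (chr19:57668685-57668934, plus strand, 2 CG pairs): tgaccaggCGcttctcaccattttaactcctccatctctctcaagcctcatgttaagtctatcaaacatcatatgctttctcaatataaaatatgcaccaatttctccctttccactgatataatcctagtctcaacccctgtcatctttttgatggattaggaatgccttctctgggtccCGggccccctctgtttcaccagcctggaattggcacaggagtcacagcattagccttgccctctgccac
ZNF274 (chr19:58182811-58183060, plus strand, 14 CG pairs): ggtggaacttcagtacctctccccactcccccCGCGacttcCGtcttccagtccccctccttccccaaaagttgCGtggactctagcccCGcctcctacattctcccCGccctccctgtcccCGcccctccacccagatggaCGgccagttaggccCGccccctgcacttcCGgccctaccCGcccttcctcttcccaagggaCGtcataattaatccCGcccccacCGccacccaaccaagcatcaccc

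RefSeq promoter windows were matched for 47 of the 52 members by symbol (5 of them with 2 windows, of which the one with more CG pairs was counted). Those 47 windows held between 2 and 35 CG pairs (median 18), against a median of 11 over all 35116 windows of the table. ZSCAN4, with 2 CG pairs, and ZNF667, with 35, mark the ends of this range, and 85.3% of all windows held at least as many pairs as that of ZSCAN4. The 23 members silent in 1 or 2 lines had a median of 17 pairs and the 19 silent in no line a median of 19, so the number of CG pairs did not set them apart. The 5 matched members silent in every line had a median of 29 but ran from 2 to 35, the whole range of the members. Beyond CG pairs, the windows shared letters. ACTACANNNCCCA (N is any base, both strands searched), the pattern of its shape that most members held, was present in 17 of the 47 members (36.2%), ZNF772 and ZNF776 among them, in 54 of 403 other zinc finger genes with a window and in 1.51% of all windows. The most widely shared run of 9 letters with a CG pair, CCGGAAGTC (both strands), was present in 15 of 47 members (31.9%), ZNF776 and ZNF134 among them, in 1.74% of the other zinc finger genes and in 0.729% of all windows. Both were picked because members share them, the members descend from one another by duplication, and a match is a description of the letters only.

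Total counts ranged from 13892514 to 32496676 over the 24 libraries. A count of 0 allows up to 3 counts, which is 0.216 CPM in the smallest library, and such limits cover counting error only. Of 12 T-cell markers listed, 11 were in the files, and their summed level was 2220 to 2730 CPM in treated and 2320 to 2530 CPM in untreated PF382, 1420 to 1540 CPM in treated and 1310 to 1370 CPM in untreated HH, and 899 to 1070 CPM in treated and 1010 to 1130 CPM in untreated TLOm1. In TLOm1, CD3D (at most 0.731 CPM) and CD3G (at most 0.122 CPM) were near 0 in every library, and CD7, CD5 and CD28 were at most 0.848, 1.95 and 1.2 CPM. CD3E (33.5 to 39.9 CPM), CD247 (111 to 141), CD2 (221 to 270), ZAP70 (55.9 to 134) and PTPRC (439 to 563) were expressed there. Of 4 epithelial markers listed, CDH1, an epithelial cadherin, was at 38.3 to 90.9 CPM in TLOm1 and KRT5 at 0.528 to 5.89 CPM. EPCAM and KRT14 were at most 0.107 and 0.101 CPM. LCK, a T-cell kinase, was at most 0.646 CPM in HH and at most 1.34 CPM in TLOm1. In the drug tests each untreated library was kept with its own set. The counts of the 2 untreated libraries of a line differed beyond what sampling gives (chi-square divided by its degrees of freedom, 25.1 to 36.2 over the lines). Ratios between untreated lines sum these 2 libraries, and their counting intervals do not cover that difference. In bulk RNA, fewer cells that use a gene and less RNA per cell cannot be told apart.

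Untreated, the cluster was most fully expressed in PF382, partly in HH and least in TLOm1. A member was called silent in a line when both untreated libraries of that line were below 0.25 CPM. By this measure 31 of 52 members (59.6%) were silent in TLOm1, 16 (30.8%) in HH and 6 (11.5%) in PF382. Over all 25559 genes the silent shares were close to each other, at 42.3% in TLOm1, 43.9% in HH and 40% in PF382, and over 525 other zinc finger genes they were 37.3%, 32.4% and 15.6%, in the same order of lines. The median member had 0.0624 CPM in untreated TLOm1, 2.86 CPM in untreated HH and 14.1 CPM in untreated PF382. Nearest to the threshold, ZNF776 had up to 0.185 CPM and counted as silent in TLOm1, whereas ZNF419 reached 0.417 CPM and did not; in HH the nearest values were 0.149 CPM (ZNF549, silent) and 0.298 CPM (ZNF154, not silent), and in PF382 they were 0.131 CPM (ZSCAN4, silent) and 0.262 CPM (ZNF772, not silent).

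**Figure D1:**
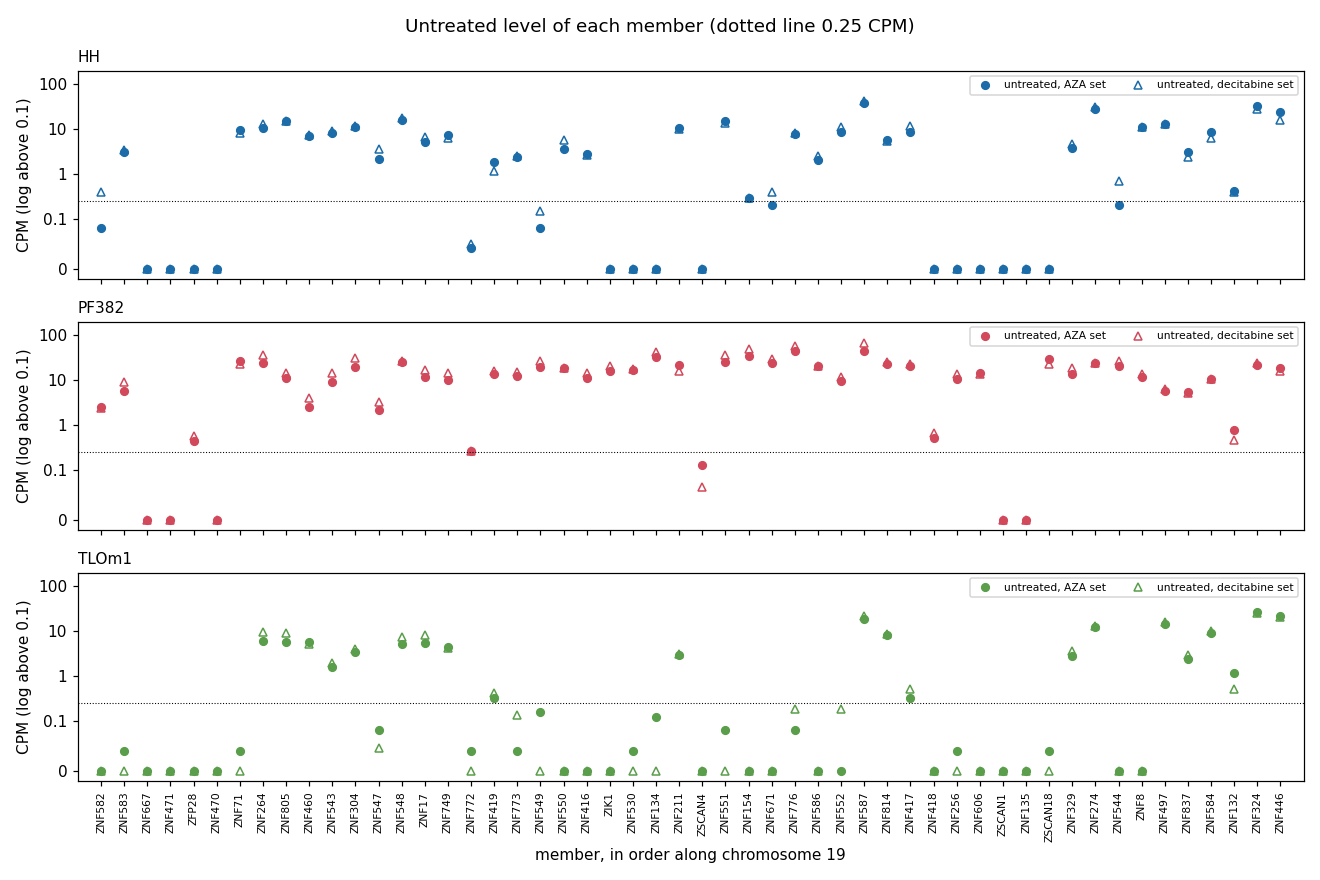
CPM of each member in the untreated libraries of HH, PF382 and TLOm1, with members in order along chromosome 19 and the y axis logarithmic above 0.1 CPM. Filled circles are the AZA set and open triangles the DAC set; 31 members lie below the dotted line of 0.25 CPM in both TLOm1 libraries, 16 in HH and 6 in PF382.

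At 0.25 CPM, silence was nested across the lines. The 6 members silent in PF382 were silent in all lines: ZNF667, ZNF471, ZNF470, ZSCAN4, ZSCAN1 and ZNF135. A further 10 were silent in HH and TLOm1 but not in PF382, namely ZFP28, ZNF772, ZNF549, ZIK1, ZNF530, ZNF134, ZNF418, ZNF256, ZNF606 and ZSCAN18. TLOm1 alone had 15 more silent members, ZNF582, ZNF583, ZNF71, ZNF547, ZNF773, ZNF550, ZNF416, ZNF551, ZNF154, ZNF671, ZNF776, ZNF586, ZNF552, ZNF544 and ZNF8. The last 21 were silent in no line. At this threshold no member was silent in HH or in PF382 and expressed in TLOm1. Over all genes 2.89% were silent in HH only, 2.67% in PF382 only and 2.52% in both of these only. Over the other zinc finger genes these shares were 3.24%, 0.571% and 1.33%, so 0 of 52 members is near them. Silence in PF382 and TLOm1 only was also at 0 members, against 1.85% of all genes and 1.14% of the other zinc finger genes. At 0.5 CPM, ZNF132 would be silent in HH (0.411 and 0.398 CPM) and not in TLOm1 (1.18 and 0.509 CPM). Being silent in TLOm1 only was a feature of 28.8% of the members, 8.38% of the other zinc finger genes and 2.02% of all genes. Silence in HH and TLOm1 took 19.2% of the members, 15.2% of the other zinc finger genes and 5.48% of all genes, and silence in every line 11.5%, 12.6% and 33%.

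Along the chromosome, silent members of TLOm1 stood side by side. Taken in RefSeq order from the centromere side, all 7 members from ZNF582 to ZNF71 were silent in TLOm1, as were 21 of the 26 from ZNF772 to ZSCAN18. This second stretch held unbroken runs of 7 (ZNF773 to ZNF134), 7 (ZSCAN4 to ZNF552) and 6 (ZNF418 to ZSCAN18), broken by ZNF419, ZNF211 and the group ZNF587, ZNF814 and ZNF417. At a threshold of 0.5 CPM, ZNF419 (0.325 and 0.417 CPM) would count as silent too. Between them, 8 of the 9 members from ZNF264 to ZNF749 were expressed in TLOm1, ZNF547 being the exception, and toward the telomere 8 of 10 from ZNF329 to ZNF446 were expressed. HH had the same 6-member run from ZNF418 to ZSCAN18, a run of 4 from ZNF667 to ZNF470 and a run of 3 from ZIK1 to ZNF134, and 12 silent members in all between ZNF772 and ZSCAN18. In PF382 that stretch held 3 silent members, ZSCAN4, ZSCAN1 and ZNF135.

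**Figure D2:**
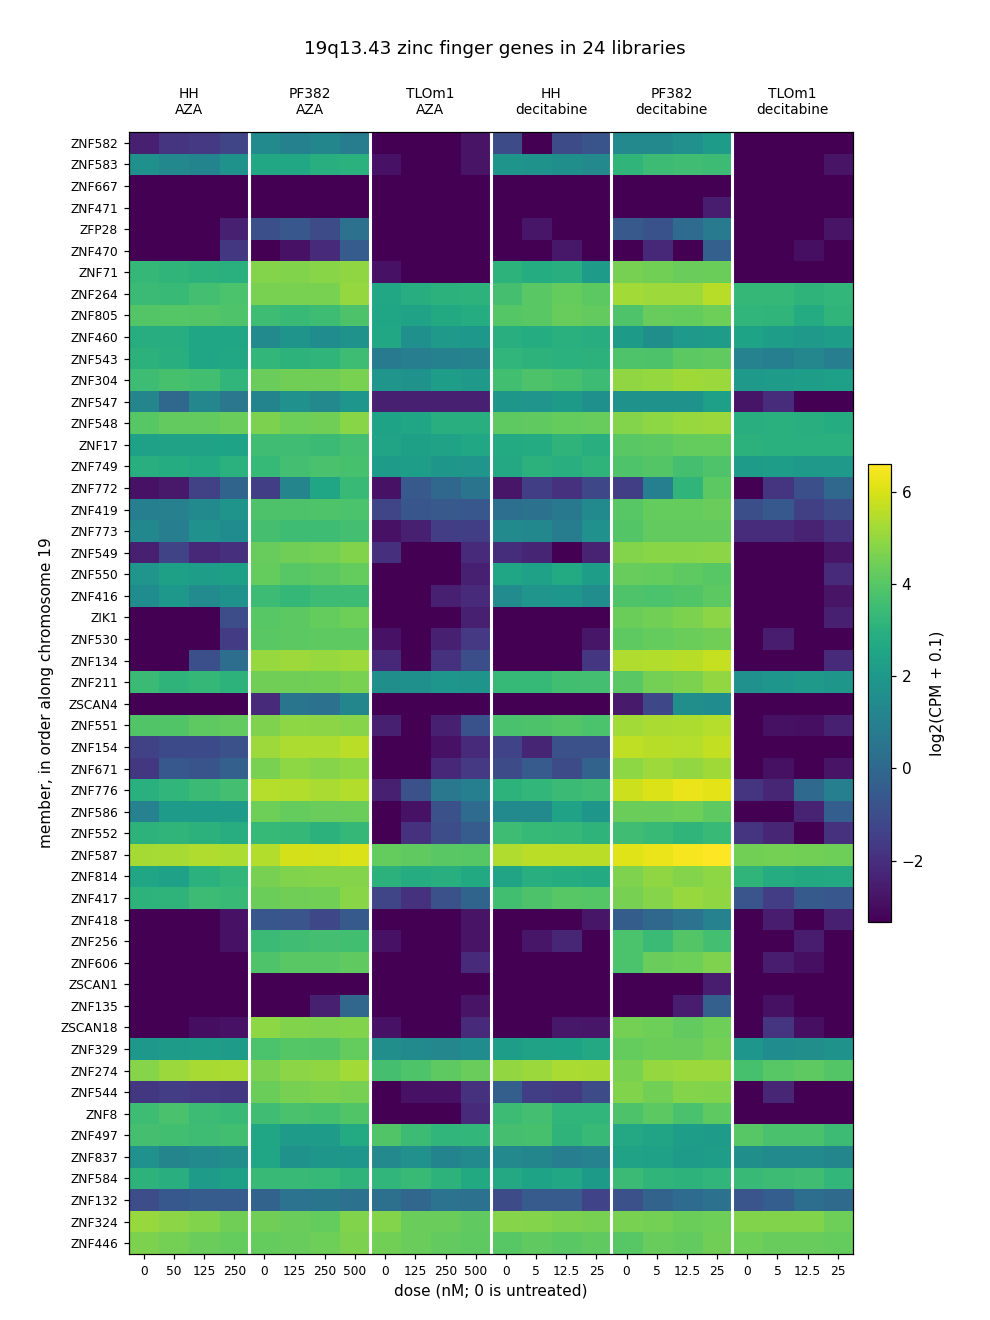
Each row is a member in order along chromosome 19 and each column 1 of the 24 libraries, grouped by line and set with the dose in nM below (0 is untreated); color is log2(CPM + 0.1). Dark rows in TLOm1 mark the stretch from ZNF582 to ZNF71 and most of that from ZNF773 to ZSCAN18, where ZNF211, ZNF587 and ZNF814 are bright. Most of the dark rows stay dark in the treated libraries. The ZNF772 row is lighter at the highest dose than untreated in every line and set.

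The levels themselves show how far apart the lines were. ZNF154, known for promoter methylation in tumors, was at 35.2 and 50.1 CPM in untreated PF382, 0.288 and 0.298 CPM in untreated HH and 0 CPM in both untreated TLOm1 libraries. Against the floor of 3 counts over both TLOm1 libraries, it was at least 635-fold higher in PF382 than in TLOm1. ZNF671, another gene known as methylated in tumors, was at least 413-fold higher, ZNF544 at least 354-fold, ZNF586 at least 323-fold and ZNF550 at least 292-fold. ZNF134 had 1426 counts in the untreated PF382 libraries, 3 in TLOm1 and 0 in HH, a ratio of PF382 to TLOm1 of 574 (95% counting interval 196 to 2787). ZSCAN18 had 1025 counts in PF382, 1 in TLOm1 and 0 in HH. ZNF8 divided the lines in another way, with 11.7 and 14.0 CPM in PF382, 11.3 and 11.1 CPM in HH and 0 CPM in both TLOm1 libraries (at least 194.5-fold higher in PF382 than in TLOm1 by the floor).

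Tested across genes with the 2 untreated libraries of a line as replicates (edgeR quasi-likelihood, Benjamini-Hochberg adjusted p below 0.05; a comparison chosen after the values were seen), 38 of the 44 members tested were higher in PF382 than in TLOm1 and 3 were lower. The same comparison called 33.9% of all 15501 genes tested higher and 33.3% lower. The members' median log2 ratio was 6.04 as fitted, and 5.26 over the 47 members with a ratio when lines without a count were put at their floor, against 0.01 over all genes. PF382 against HH gave 30 members higher and 4 lower, where 34.4% of all genes were higher and 32% lower, and the median log2 ratio was 1.12 (1.34 with the floor). HH against TLOm1 gave 26 higher and 1 lower, where 27.6% of all genes were higher and 28.1% lower, and the median was 1.18 (1.76 with the floor over 37 members). Of the 446 other zinc finger genes tested, 293 were higher in PF382 than in TLOm1 and 50 lower, 274 were higher in PF382 than in HH and 50 lower, and 139 were higher in HH than in TLOm1 and 88 lower. The untreated libraries of a line are 1 per set, and nothing in the labels says that they came from separate cultures, so these p values measure only the spread between libraries. The filter on low counts left out ZNF667, ZNF471, ZNF470, ZSCAN1, ZNF135, ZSCAN4, ZNF772 and ZFP28, which were low in every line. It kept some members through PF382 alone, such as ZIK1 (689 counts there) and ZNF606 (542), both at 0 counts in HH and TLOm1. Likewise ZNF134, ZNF530, ZNF256, ZSCAN18, ZNF418, ZNF549, ZNF154, ZNF671, ZNF582 and ZNF544 had at most 19 counts in untreated HH or TLOm1. Such members could hardly be called lower in PF382. This tilts the counts of members and the fitted medians toward PF382.

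**Figure D3:**
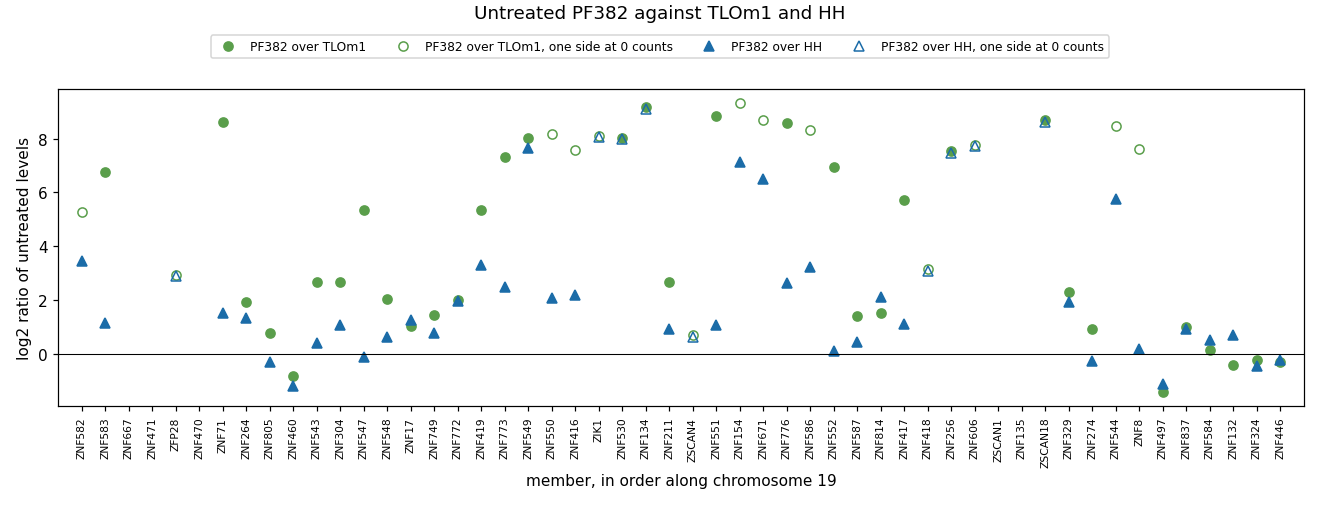
Log2 ratio of untreated levels for each member in chromosomal order, PF382 over TLOm1 as circles and PF382 over HH as triangles; open symbols have 0 counts in the second line and are drawn at the floor of 3 counts. Ratios of PF382 to TLOm1 are high for most members from ZNF773 to ZSCAN18, up to at least 635-fold for ZNF154, and lie near 0 on the log2 scale for ZNF584, ZNF324 and ZNF446.

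The 5 members with less RNA in untreated PF382 than in TLOm1 were ZNF460, ZNF497, ZNF132, ZNF324 and ZNF446, all expressed in every line. The other members expressed in every line were higher in PF382 than in TLOm1, ZNF584 by only 1.09-fold. ZNF587, which represses young retroelements together with its near copy ZNF417, had the highest mean untreated level (39.1 CPM), with 44.2 and 68.9 CPM in PF382, 38.2 and 42 CPM in HH and 18.9 and 22.3 CPM in TLOm1. Levels of ZNF417 followed the lines far more steeply, at 20.4 and 23.2 CPM in PF382, 8.43 and 11.8 CPM in HH and 0.325 and 0.509 CPM in TLOm1. The transcripts of these genes share sequence, 37.7% of the 50-base windows of ZNF417 being found in ZNF587 as well, so reads counted for one may come from the other. ZNF324 followed with a mean of 26.6 CPM, then ZNF274 with 22.4 CPM and ZNF446 with 19.9 CPM. ZNF446 had 19.2 and 16.03 CPM in PF382, 24.6 and 16.3 CPM in HH and 22.5 and 21.1 CPM in TLOm1, and 35.4% of its 50-base windows lie in transcripts of its neighbor ZNF324. ZNF497, near the telomere, was lower in PF382 than in TLOm1 (log2 ratio −1.55, SE 0.20) and lower than in HH (−1.30, SE 0.21). At the other end, ZNF667, ZNF471, ZNF470, ZSCAN1 and ZNF135 had no count in any of the 6 untreated libraries. ZNF667 stayed at 0 in all 18 treated libraries too, and ZNF471 and ZSCAN1 each reached no more than 0.0720 CPM, in PF382 at 25 nM DAC.

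Few members were called with drug, and they were led by ZNF772, a KRAB zinc finger gene. The filter on low counts left out ZNF667, ZNF471, ZNF470, ZSCAN1 and ZNF135 with either drug and ZSCAN4 with DAC. ZNF772 with either drug and ZSCAN4 with AZA passed it through treated libraries only. Untreated HH, PF382 and TLOm1 held 1, 6 and 1 counts of ZNF772 in the AZA set and 1, 4 and 0 in the DAC set. ZSCAN4 had 0, 3 and 0 counts there in the AZA set. For these genes the test against untreated could call a rise but hardly a fall. In the AZA set, 1 of 47 members tested was higher in treated than in untreated libraries (0.857% of 16107 genes were called higher, 138 genes) and none was lower by edgeR or DESeq2 (2 members at an unadjusted p below 0.05, 8.54% of all genes). ZNF772 had a log2 fold change of 4.24 (SE 0.83, adjusted p = 0.0398, edgeR quasi-likelihood with line as a block, 9 treated against 3 untreated libraries). By line and rising dose, with untreated first, ZNF772 had 0.0411, 0.0618, 0.277 and 0.806 CPM in HH. In PF382 it had 0.262, 2.19, 5.60 and 10.1 CPM, and in TLOm1 0.0406, 0.576, 0.903 and 1.31 CPM. The call was lost without the library of HH at 125 nM, PF382 at 250 nM, TLOm1 at 250 nM or TLOm1 at 500 nM (log2 fold changes of 4.19 to 4.26 without them), and over all alternatives the adjusted p lay between 0.000103 and 1. Every step in each line was upward on the CPM scale; in HH the untreated library and that at 50 nM held 1 count each, so this first step is no difference in counts. The highest dose against untreated gave a ratio of 38.5 in PF382 (253 against 6 counts, 95% counting interval 17.5 to 106), of 19.6 in HH (20 against 1 count, 3.14 to 813) and of 32.4 in TLOm1 (31 against 1 count, 5.39 to 1319).

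ZNF772 behaved alike with DAC, although no gene passed the DAC test. It had 0.261, 1.84, 8.90 and 16.9 CPM in PF382 from untreated to 25 nM. In TLOm1 it had 0, 0.178, 0.436 and 0.889 CPM, and in HH 0.0497, 0.261, 0.168 and 0.348 CPM, where the middle dose lay below the lowest. The log2 fold change over the 9 DAC libraries was 4.74 (SE 1.09, adjusted p = 0.133, edgeR). With DAC 0 of 15892 genes (0%) and 0 of 46 members passed by edgeR, 4 members being higher and 1 lower at an unadjusted p below 0.05 (9.55% and 6.13% of all genes), and DESeq2 called 2 members, ZNF772 and ZNF274, both higher (2.95% of all genes). The slope on dose, which leaves the untreated libraries out, was positive for ZNF772 with each drug: its log2 level gained 0.98 per doubling of AZA (SE 0.14, adjusted p = 0.00314, edgeR) and 1.10 per doubling of DAC (SE 0.18, adjusted p = 0.00495, edgeR). The DAC slope lost its call without the PF382 library at 5 nM (0.74 per doubling) or at 25 nM (1.04). Its response did not pass the test for a difference between lines (adjusted p = 1 with AZA and 0.97 with DAC, edgeR), a test that does not show the lines to be alike. Of the 50-base windows of ZNF772 transcripts, 8.29% occur in other genes, none of them a member.

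**Figure D4:**
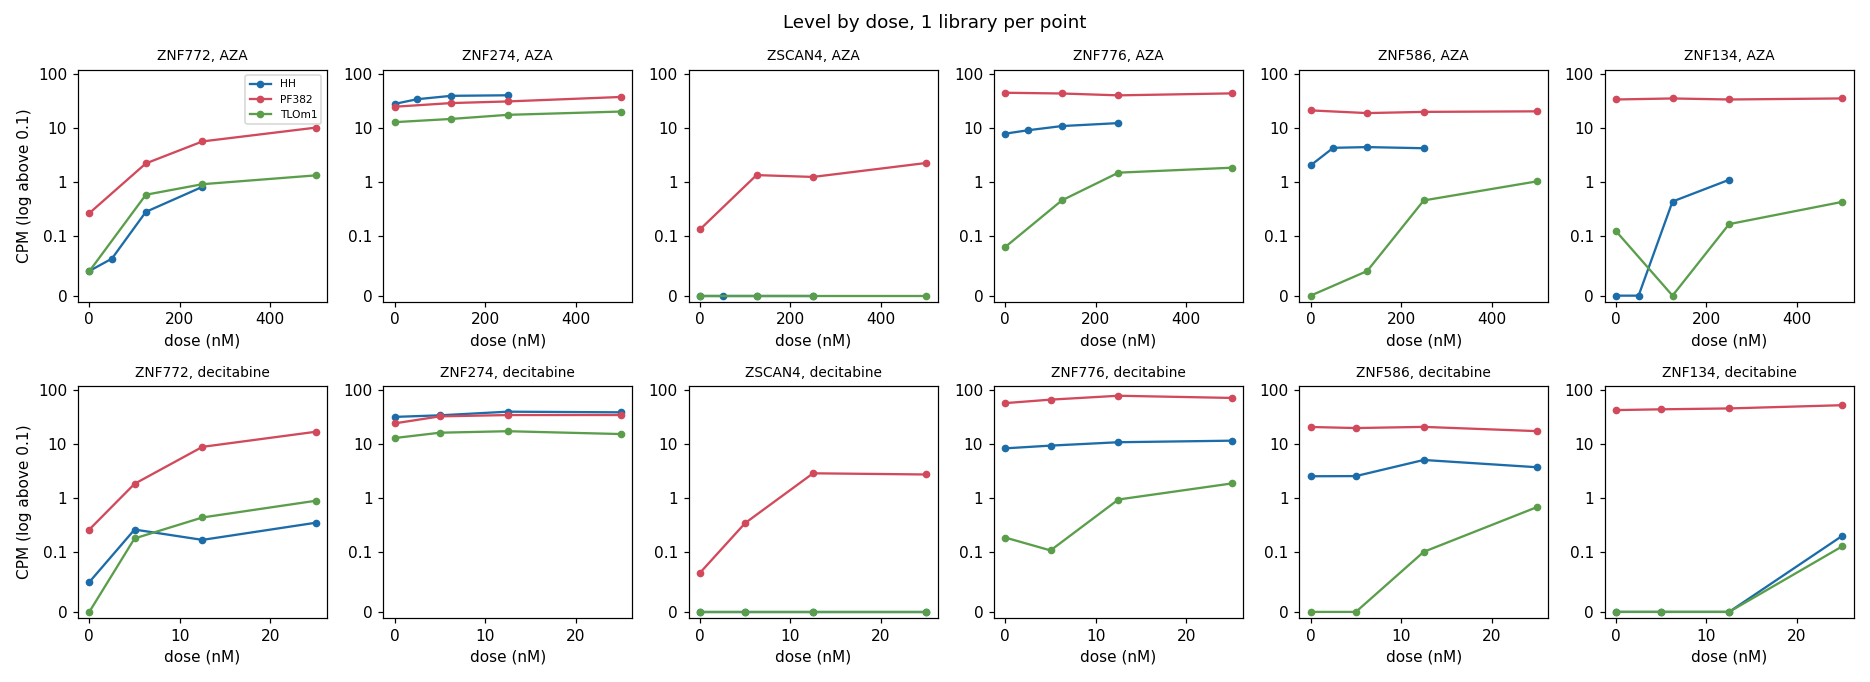
CPM against dose in nM for 6 members, AZA above and DAC below, with 1 library per point, lines colored by cell line and the y axis logarithmic above 0.1 CPM. ZNF772 is higher at the top dose than untreated in all 3 lines, ZSCAN4 has counts in PF382 only, and ZNF776 and ZNF586 reach 1.82 and 1.02 CPM in TLOm1 at 500 nM AZA below every HH and PF382 library.

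ZNF274, which binds the 3′ exons of zinc finger genes and recruits SETDB1 there, moved by a small amount in the same direction in every line. From untreated to the highest AZA dose it had 27.8, 34.0, 39.3 and 40.2 CPM in HH, 24.7, 28.8, 30.9 and 37.4 CPM in PF382, and 12.8, 14.6, 17.4 and 20.1 CPM in TLOm1. With DAC it had 32.0, 34.2, 39.9 and 38.9 CPM in HH, 24.2, 32.7, 34.6 and 34.6 CPM in PF382, and 13, 16.3, 17.4 and 15.4 CPM in TLOm1. All 9 treated libraries of each set were above the untreated library of their line. Its fold change on the log2 scale was 0.41 with AZA (SE 0.10, adjusted p = 0.0789) and 0.33 with DAC (SE 0.08, adjusted p = 0.133), both short of the edgeR threshold. On the rank of the dose, with untreated as the lowest step, ZNF274 rose by 0.19 per step with AZA (SE 0.02, adjusted p = 0.000363, edgeR), and DAC gave 0.10 per step (adjusted p = 0.0689). The slope over AZA doses alone was 0.16 per doubling (adjusted p = 0.0196, edgeR), and without PF382 at 500 nM or TLOm1 at 125 nM it was 0.14 per doubling in each case and not called.

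Members above untreated in 9 of 9 libraries were ZNF772 and ZNF274 with AZA (2 of 47, where 8.24% of all genes tested did so) and ZNF772, ZNF274 and ZNF551 with DAC (3 of 46, where 6.55% did). ZNF551 had 1, 1 and 2 counts in treated TLOm1, against 0 untreated, and dropped out with TMM library sizes. None was below untreated in all 9 AZA libraries (5.04% of all genes), and ZNF552 and ZNF837 were in all 9 DAC libraries (2 of 46, 3.55% of all genes). These shares are near or below those of all genes. The median log2 fold change of the members was 0.12 with AZA and 0.08 with DAC, against 0.01 and 0.02 over all genes, and 0.02 and 0.05 over 452 other zinc finger genes tested, of which AZA called none higher and 2 lower. The members' median differed between models, which did not test the same members. Without the line PF382 it was 0.08 over 35 members with AZA and −0.00113 over 33 members with DAC. In the fit of all 24 libraries it was 0.41 and 0.22 over 49 members, where all genes had 0.05 and 0.06.

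Dose trends added a few expressed members of small effect. On the AZA dose slope, 3 of 47 members were called higher (8.04% of 16450 genes were) and 1 lower (6.19% were). Beside ZNF772 and ZNF274 this was ZNF264, with 0.17 per doubling (SE 0.05, adjusted p = 0.0475), and ZNF584, which fell by 0.25 per doubling (SE 0.07, adjusted p = 0.0452). These calls were weak ones: ZNF264 kept its call in 3 of 15 alternatives (adjusted p 0.036 to 0.184) and ZNF584 in 4 of 15 (0.0394 to 0.186), all with the same sign. The AZA rank trend called these 4 genes as well, 3 higher (12% of 16107 genes) and 1 lower (9.39%). ZNF264 had 10.7, 10.2, 12.2 and 13.6 CPM in HH with rising AZA, 24.2, 24.0, 24.0 and 32.9 CPM in PF382 and 6.05, 7.07, 8.29 and 8.31 CPM in TLOm1. In HH and TLOm1 it was highest at the top dose, and in PF382 only the top dose stood above untreated. In the DAC set ZNF264 had 12.8, 16.6, 18.9 and 16.9 CPM in HH, 37.3, 35.1, 35.1 and 45.6 CPM in PF382, and 9.58, 9.51, 8.56 and 9.49 CPM in TLOm1, with no common direction. ZNF584 had 8.51, 7.36, 4.22 and 4.92 CPM in HH with AZA, 10.5, 10.5, 9.89 and 8.73 CPM in PF382 and 9.18, 10.2, 8.41 and 6.45 CPM in TLOm1, and the top dose lay below untreated in each line. With DAC it had 6.21, 5.26, 6.09 and 4.13 CPM in HH, 10.8, 8.95, 8.49 and 9.07 CPM in PF382 and 10.2, 10.9, 11.6 and 9.32 CPM in TLOm1.

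ZNF548 and ZNF417 came next on the AZA slope without passing it (adjusted p = 0.132 and 0.179). ZNF548 had 16, 18.6, 18.3 and 20.1 CPM in HH, 25.0, 21.3, 21.9 and 28.4 CPM in PF382 and 5.24, 5.67, 7.30 and 7.30 CPM in TLOm1 with AZA, and with DAC 17.6, 17.7, 18.9 and 19.2 CPM in HH, 27.2, 29.7, 33.4 and 34.6 CPM in PF382 and 7.63, 7.70, 7.52 and 6.90 CPM in TLOm1. ZNF417 had 8.43, 8.72, 11.1 and 10.2 CPM in HH, 20.4, 21.4, 22.3 and 28.0 CPM in PF382 and 0.325, 0.165, 0.451 and 0.806 CPM in TLOm1 with AZA. With DAC it had 11.8, 13.9, 16.1 and 15.7 CPM in HH, 23.2, 27.4, 33 and 30.7 CPM in PF382 and 0.509, 0.249, 0.604 and 0.550 CPM in TLOm1. For both genes the highest dose was above untreated in HH and PF382 with each drug.

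With DAC the slope called 1 of 47 members higher, ZNF772 (2.6% of 16248 genes were called higher), and none lower (0.991% were, and 2 members at an unadjusted p below 0.05 with edgeR, 7.51% of all genes). The DAC rank trend called ZNF772 and ZNF211 higher (8.6% of 15892 genes) and ZNF497 and ZNF324 lower (5.38%), 2 of 46 members each way. ZNF211 had 16.5, 23.0, 24.5 and 31.7 CPM in PF382 with DAC, 9.99, 9.80, 11.8 and 12.1 CPM in HH and 3.15, 3.56, 4.03 and 3.68 CPM in TLOm1, a rank slope of 0.16 per step (SE 0.04, adjusted p = 0.0309, edgeR; 0.13 and not called without PF382 at 25 nM). With AZA it had 10.7, 8.65, 9.63 and 8.43 CPM in HH, 21.7, 21.6, 22.2 and 24.4 CPM in PF382 and 2.97, 3.08, 3.57 and 3.44 CPM in TLOm1. ZNF211 was expressed in TLOm1 between neighbors that were silent on both sides, and so was ZNF419, at a far lower level (0.325 and 0.417 CPM untreated).

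ZNF497 and ZNF324, at the telomeric end, were the members called lower on the DAC rank trend, although not every treated library was below untreated. ZNF497 fell by 0.18 per dose step (SE 0.04, adjusted p = 0.0157, edgeR), with 12.8, 13.1, 8.55 and 10.3 CPM in HH, 6.25, 5.45, 4.48 and 4.25 CPM in PF382 and 16.1, 13.3, 13.2 and 11.1 CPM in TLOm1. With AZA it had 12.8, 12, 11.3 and 11.9 CPM in HH, 5.63, 4.31, 4.29 and 6.50 CPM in PF382 and 14.9, 11, 9.23 and 9.25 CPM in TLOm1. ZNF324 fell by 0.10 per dose step of DAC (SE 0.03, adjusted p = 0.0312, edgeR; −0.08 to −0.10 and not called without the 25 nM library of any of the lines), with 28.0, 26.6, 24.8 and 23.7 CPM in HH, 24.4, 23.0, 20.5 and 20.9 CPM in PF382 and 25.9, 26.2, 26.0 and 21.3 CPM in TLOm1. AZA gave ZNF324 levels of 33.1, 29.3, 25.9 and 21.4 CPM in HH and 27, 20.2, 19.9 and 17.9 CPM in TLOm1, lower at each step, but 21.5, 20.01, 18.9 and 26.2 CPM in PF382, where the top dose was above untreated. ZNF582 was sixth on the DAC slope (adjusted p = 0.321): it had 2.41, 2.47, 3.14 and 4.25 CPM in PF382, 0.398, 0, 0.391 and 0.497 CPM in HH and 0 CPM in all 4 TLOm1 libraries with DAC. With AZA, ZNF582 had 2.53, 1.96, 2.25 and 1.72 CPM in PF382, 0.0823, 0.185, 0.215 and 0.323 CPM in HH and at most 0.0424 CPM in TLOm1.

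The silent members mostly stayed low with drug. Of the 31 silent in TLOm1, 3 reached 1 CPM in a treated library with AZA (ZNF772, ZNF776 and ZNF586) and 1 with DAC (ZNF776), 9.68% and 3.23%, where 3.3% and 1.79% of all 10821 genes silent in TLOm1 did. Of the 16 silent in HH, 1 reached 1 CPM with AZA (ZNF134, 6.25%; 1.61% of 11216 silent genes) and none with DAC (1.09%). Of the 6 silent in PF382, ZSCAN4 did so with AZA and with DAC (16.7% each; 2.2% and 3.96% of 10232 silent genes). The other zinc finger genes reached 1 CPM in 3.06% and 1.53% of those silent in TLOm1, 1.18% and 1.76% in HH and 11% and 15.9% in PF382, with AZA and DAC in that order. The members' shares rest on 1 to 3 genes each. At a lower bar, 7 of the 31 had 0.25 CPM or more at the highest AZA dose in TLOm1 and 3 at the highest DAC dose (22.6% and 9.68%), where 12% and 8.83% of all silent genes and 17.9% and 13.8% of the other zinc finger genes did, so that the DAC share was near that of all genes.

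**Figure D5:**
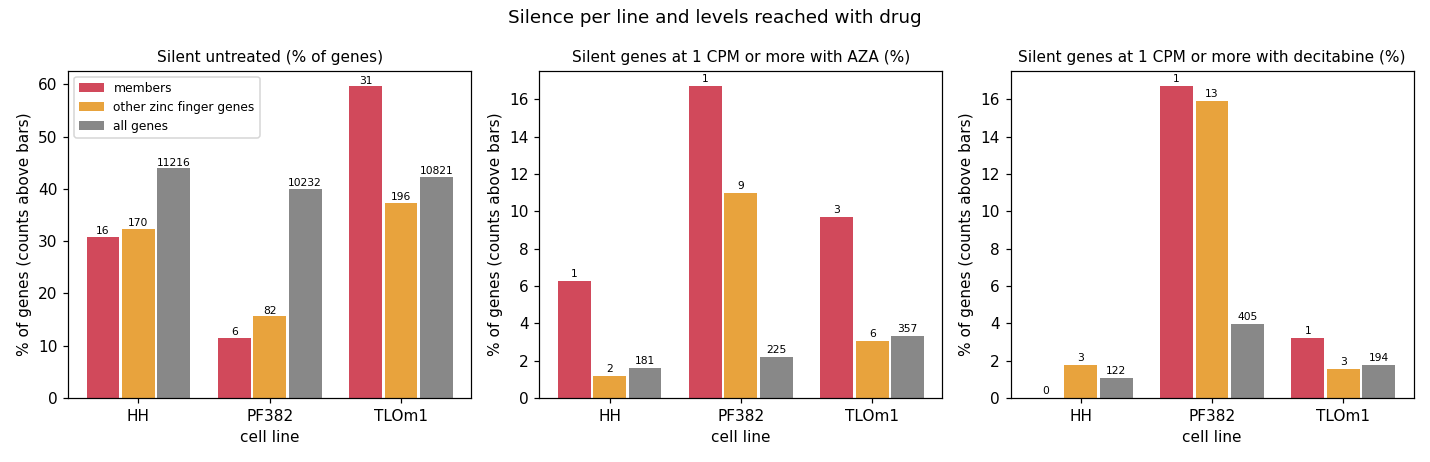
Share of genes silent untreated in each line (left), and share of those silent genes at 1 CPM or more in a treated library with AZA (middle) or DAC (right), for the members, the other zinc finger genes and all genes, with the number of genes above each bar. Member bars in the middle and right panels stand for 0 to 3 genes.

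ZNF776, a KRAB zinc finger gene in the middle of the TLOm1 run, had 0.0813, 0.452, 1.48 and 1.82 CPM in TLOm1 from untreated to 500 nM AZA. The DAC libraries of TLOm1 gave 0.185, 0.107, 0.940 and 1.86 CPM. The ratio of the highest dose to untreated was 22.4 with AZA (43 against 2 counts, 95% counting interval 5.85 to 191) and 10.1 with DAC (44 against 4 counts, 3.66 to 38.6). These levels remained far below other lines: ZNF776 had 7.81, 9.03, 10.8 and 12.3 CPM in HH and 44.8, 43.4, 40.1 and 43.6 CPM in PF382 with AZA, and 8.35, 9.38, 10.8 and 11.6 CPM in HH and 57.6, 66.8, 78.9 and 71.8 CPM in PF382 with DAC. In HH each dose of either drug was above the one before it. The single-line test in TLOm1 gave a log2 fold change of 3.86 with AZA (SE 1.36, adjusted p = 0.153, edgeR).

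ZNF586, its neighbor, had 0, 0.0411, 0.451 and 1.02 CPM in TLOm1 with AZA and 0, 0, 0.101 and 0.678 CPM with DAC. The highest doses were at least 8.35-fold and at least 4.88-fold higher than untreated by the floor of 3 counts in the untreated library. In HH it had 2.02, 4.27, 4.40 and 4.19 CPM with AZA and 2.54, 2.55, 5.08 and 3.73 CPM with DAC, and in PF382 21.1, 18.8, 19.8 and 20.3 CPM with AZA and 20.8, 19.9, 20.9 and 17.4 CPM with DAC. Treated TLOm1 thus stayed below untreated HH for both ZNF776 and ZNF586.

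ZNF134, with the most counts among the genes that PF382 expressed and HH did not, had 0, 0, 0.431 and 1.09 CPM in HH with AZA, at least 8.82-fold higher at 250 nM than untreated by the floor. DAC gave 0, 0, 0 and 0.199 CPM in HH. TLOm1 had 0.122, 0, 0.164 and 0.424 CPM with AZA and 0, 0, 0 and 0.127 CPM with DAC, while PF382 had 33.6, 35.1, 33.6 and 35.1 CPM with AZA and 42.7, 44.2, 45.9 and 52.7 CPM with DAC. In HH at 250 nM AZA its neighbors ZIK1 and ZNF530 also had counts, at 0.403 and 0.242 CPM, after 0 in the HH libraries at lower AZA doses and untreated.

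ZSCAN4, a SCAN-domain gene known from the early embryo and from telomere maintenance in mouse embryonic stem cells, had counts in PF382 only. With AZA it had 0.131, 1.33, 1.23 and 2.23 CPM there, and with DAC 0.0651, 0.344, 2.88 and 2.73 CPM. All 8 HH and all 8 TLOm1 libraries were at 0 for ZSCAN4. The ratio of the highest dose to untreated was 17.1 with AZA (56 against 3 counts, 95% counting interval 5.55 to 85.2) and 42 with DAC (38 against 1 count, 7.09 to 1701). Its log2 fold change with AZA was 3.37 (SE 0.80, adjusted p = 0.113, edgeR), resting on PF382 alone. In PF382 ZNF135 (0, 0, 0.0849 and 0.877 CPM with AZA; 0, 0, 0.0669 and 0.720 CPM with DAC) and ZNF470 (0, 0.0392, 0.127 and 0.638 CPM with AZA; 0, 0.115, 0 and 0.720 CPM with DAC) also left 0, mainly at the highest dose. In HH and TLOm1 ZNF135 had at most 0.0424 CPM and ZNF470 at most 0.202 CPM.

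Within single lines, each with 3 doses against 1 untreated library and the spread taken from all 24 libraries, 49 members were tested. AZA in PF382 called 148 of 17841 genes (0.83%) and 1 member, ZNF587, with a log2 fold change of 0.47 (SE 0.11, adjusted p = 0.0486, edgeR). Its AZA-treated PF382 libraries had 61.2, 60.2 and 67.1 CPM, against 44.2 CPM in the untreated library of that set; the untreated PF382 library of the DAC set had 68.9 CPM, above all of them, and the DAC libraries had 78.0, 86.9 and 96.5 CPM. In HH, ZNF587 had 38.2, 39.6, 42.9 and 41.7 CPM with AZA and 42, 47.3, 46.8 and 47.3 CPM with DAC, and in TLOm1 18.9, 18.1, 16.7 and 16.1 CPM with AZA and 22.3, 22.8, 22.5 and 21.3 CPM with DAC. AZA in TLOm1 called 178 genes (0.998%) and no member, 7 members being higher and 3 lower at an unadjusted p below 0.05 (10.7% and 7.82% of all genes), and DESeq2 called 1, ZNF776 (5.3% of all genes). By edgeR no gene was called for AZA in HH, for DAC in HH or for DAC in TLOm1 (0% each), and DESeq2 called 1.52%, 0.269% and 0.532% of genes in these comparisons and no member. At an unadjusted p below 0.05 by edgeR there were 4 members for AZA in HH (11% of all genes), 2 for DAC in HH (7.74%) and none for DAC in TLOm1 (1473 of 17841 genes). At the same level DESeq2 had 4, 1 and 3 members, beside 2030, 1413 and 1503 of all 17841 genes. DAC in PF382 called 46 genes (0.258%) and no member by edgeR, with 6 members higher at an unadjusted p below 0.05 (9.65% of all genes), and DESeq2 called 2, ZNF772 and ZNF211 (2.47% of all genes).

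A test of whether the lines differed in their response called 26 genes with AZA (0.146%) and 1 with DAC (0.00561%), and no member by edgeR with either drug. Unadjusted p values were below 0.05 for 5 of 49 members with AZA (10.7% of all genes) and none with DAC, and the DESeq2 likelihood ratio test called 2 members with AZA, ZNF587 and ZNF552 (2.31% of all genes), and none with DAC. The smallest p values with AZA were for ZNF587 (adjusted p = 0.194), ZNF552 (0.213), ZNF460 (0.427) and ZNF671 (0.461), all by edgeR. ZNF552 had 0, 0.165, 0.410 and 0.636 CPM in TLOm1, 8.47, 8.90, 8.19 and 7.18 CPM in HH and 9.82, 9.75, 8.28 and 9.57 CPM in PF382 with AZA. With DAC it had 0.185, 0.107, 0 and 0.169 CPM in TLOm1, 11.3, 9.85, 9.66 and 8.75 CPM in HH and 11.7, 10.6, 8.76 and 10.4 CPM in PF382, and 14.2% of its 50-base windows are shared with ZNF814, which TLOm1 expressed. ZNF552 thus had more counts at each AZA dose in TLOm1 than at the dose before it, from 0 untreated, and the DAC libraries of TLOm1 did not show this. ZNF460 had 5.93, 3.08, 3.90 and 3.82 CPM in TLOm1, 7.16, 7.23, 5.60 and 5.77 CPM in HH and 2.58, 3.45, 2.76 and 3.35 CPM in PF382 with AZA, and 5.32, 4.45, 3.89 and 4.49 CPM in TLOm1, 7.50, 6.93, 7.76 and 7.21 CPM in HH and 4.11, 2.93, 4.01 and 4.25 CPM in PF382 with DAC. In TLOm1 every dose of either drug was below untreated for ZNF460, whereas in PF382 every AZA dose was above.

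ZNF671 had 0.206, 0.556, 0.492 and 0.726 CPM in HH, 24.4, 29.9, 27.5 and 30.3 CPM in PF382 and 0, 0, 0.123 and 0.212 CPM in TLOm1 with AZA. DAC levels of ZNF671 were 0.398, 0.625, 0.391 and 0.795 CPM in HH, 30.3, 35.5, 31.9 and 36.1 CPM in PF382 and 0, 0.0356, 0 and 0.0423 CPM in TLOm1. Every AZA dose was above untreated in HH and in PF382 for ZNF671, and TLOm1 stayed near 0. With DAC the smallest between-line p values were for ZNF544 (adjusted p = 0.655), ZNF814 (0.659), ZNF805 (0.709) and ZNF211 (0.716). ZNF544 had 0.696, 0.261, 0.223 and 0.398 CPM in HH, 26.4, 22.2, 26.6 and 26.4 CPM in PF382 and 0, 0.107, 0 and 0 CPM in TLOm1 with DAC, and with AZA 0.206, 0.247, 0.215 and 0.202 CPM in HH, 20.7, 23.6, 24.8 and 23.6 CPM in PF382 and 0, 0.0411, 0.0410 and 0.170 CPM in TLOm1. ZNF544 thus stayed below 1 CPM in every HH and TLOm1 library and above 20 CPM in every PF382 library. ZNF814 had 5.42, 7.45, 7.04 and 6.66 CPM in HH, 25.8, 30.8, 27 and 29.9 CPM in PF382 and 8.88, 7.02, 6.44 and 6.65 CPM in TLOm1 with DAC. With AZA it had 5.80, 4.95, 7.97 and 9.47 CPM in HH, 23.6, 25.9, 27.1 and 27 CPM in PF382 and 8.25, 6.95, 7.43 and 6.45 CPM in TLOm1. Each treated library of PF382 was above untreated for ZNF814 and each one of TLOm1 below. ZNF805 had 15.5, 16.5, 19.4 and 18.5 CPM in HH, 14.5, 19.4, 19.1 and 21.3 CPM in PF382 and 9.07, 8.77, 6.71 and 8.98 CPM in TLOm1 with DAC. AZA levels of ZNF805 were 15.3, 15.7, 15.4 and 14.4 CPM in HH, 11.2, 10.1, 11.4 and 14.0 CPM in PF382 and 5.81, 5.14, 6.32 and 6.87 CPM in TLOm1.

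ZNF446 was at 24.6, 22.9, 19.8 and 18.8 CPM in HH, 19.2, 19.4, 21.1 and 24.9 CPM in PF382 and 22.5, 19.7, 18.4 and 17.5 CPM in TLOm1 with AZA, opposite in direction between PF382 and the other lines. The DAC set gave 16.3, 17.8, 16.6 and 18 CPM in HH, 16.03, 19.4, 18.6 and 21.6 CPM in PF382 and 21.1, 19.3, 19.6 and 18.9 CPM in TLOm1. Apart from ZNF772 and ZSCAN4, fitted AZA effects of the tested members lay between −0.34 (ZNF837) and 0.75 (ZFP28) on the log2 scale, and DAC effects of all but ZNF772 lay between −0.36 (ZNF497) and 1.22 (ZNF418), none past the threshold.

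RNA of the corepressors of KRAB zinc finger proteins was also counted. TRIM28, which itself lies in 19q13.43, was at 373 to 1105 CPM over the 24 libraries. Of 29 genes of a list of KRAB corepressors and of DNA and histone methylation, 28 were tested. AZA called 1 of the 28 higher (0.857% of all genes), MORC2, a protein of the HUSH silencing pathway (log2 fold change 0.50, SE 0.09, adjusted p = 0.027, edgeR). The AZA dose slope called 2 of the 28 higher, MORC2 and EHMT1 (8.04% of all genes), and 4 lower, CBX3, CBX5, SUV39H1 and SUV39H2 (6.19%). The DAC slope called 1 higher, the DNA methyltransferase DNMT3B (2.6% of all genes). From untreated to 25 nM DAC, DNMT3B had 34.4, 65.5, 94.25 and 114.8 CPM in PF382, but at most 0.895 CPM in HH and 3.6 CPM in TLOm1. In the AZA set, PF382 had 61.3 CPM of DNMT3B untreated and 131.4, 137.2 and 94.3 CPM with rising dose. Among 24 listed genes of other families in 19q13.43, 21 were in the files and 10 or 11 passed the filter. On the AZA slope 2 of 11 tested were called higher (8.04% of all genes), AURKC and NLRP4 (NLRP4 1.56 per doubling, adjusted p = 0.0149, edgeR). The same slope called 1 lower (6.19% of all genes), SLC27A5 (−0.32 per doubling, adjusted p = 0.0067, edgeR). The DAC slope called 1 of 10 higher (2.6% of all genes), AURKC. AURKC, a meiotic kinase whose gene lies between ZNF264 and ZNF805, rose with dose of both drugs (1.43 per doubling of AZA, adjusted p = 0.000844, and 1.30 per doubling of DAC, adjusted p = 0.00464, edgeR). In PF382 it had 0.393, 0.783, 2.80 and 9.85 CPM with AZA and 1.11, 0.459, 2.34 and 7.63 CPM with DAC. TLOm1 had 0.731, 0.740, 1.64 and 3.14 CPM with AZA and 0.416, 0.499, 0.873 and 1.57 CPM with DAC, and HH had 0.329, 0.124, 0.277 and 0.806 CPM with AZA and 0.0994, 0, 0.112 and 0.597 CPM with DAC, so that in HH only the top AZA dose was above untreated.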

How the data were processed

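RNA-seq libraries of HH, PF382 and TLOm1 (24, 1 per condition) were described by the deposited counts: the authors deposited whole, unnormalized read counts per gene, and the counts were used as given. Per the labels, STAR, DESeq2, limma and GRCh37.p2 were named without versions or roles, and RNA is described both as poly-A and as depleted of ribosomal RNA. Not given in the sources used here: counter, annotation, strand setting. Total counts were 13892514 to 32496676.

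The treated libraries of a drug were compared with the untreated libraries of its set by edgeR 4.0.16 (R 4.3.3; quasi-likelihood F test, TMM, robust, filterByExpr with minimum count 10 and minimum total 15, line as a block), with Benjamini-Hochberg adjustment over all genes tested and a threshold of 0.05. Slopes used log2 dose over 9 treated libraries; rank trends coded untreated as 0 and doses as 1 to 3. Line effects used all 24 libraries with 6 blocks. The 9 treated libraries are doses and lines, not independent cultures, so p values may be too small. CPM use the library total; ratios of single libraries carry exact binomial intervals (scipy 1.17.1). Shared 50-base windows were counted in GENCODE transcripts. Scripts were tested on simulated data. Alternatives used limma 3.58.1, DESeq2 1.42.0, other scaling and filters, and left-out libraries and lines.

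Members and lists were chosen with earlier results of these data known. Values in every library are given for members past a pooled threshold, members silent in a line and at 1 CPM with drug there, the 6 smallest p values of each slope, the 4 smallest of each between-line test, and the 4 highest and 4 lowest untreated levels (5 members tied at 0). Untreated lines were compared, and motifs picked as the gapped pattern (6 letters, 3 free, 4 letters) and the 9-letter run with CG that most members held, after the values were seen.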

Additional observations from a re-analysis of the deposited data

How the results depend on the processing

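With AZA, 1 member was called higher; DESeq2 and the model of all 24 libraries in 6 blocks each called 2 (ZNF772 and ZNF274), while limma voom, summed doses, no line block and leaving out the line HH, PF382 or TLOm1 each called 0. Without 1 treated library the count was 0 to 1 (lower: 0), and ZNF772 was lost without HH at 125 nM, PF382 at 250 nM or TLOm1 at 250 or 500 nM. With DAC, DESeq2 called 2 higher and leave-one-out fits 0 to 1, with 0 lower.

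For the AZA slope, leave-one-out gave 1 to 3 higher and 0 to 1 lower; without PF382 or TLOm1 it was 1 higher, and without any of the lines 0 lower. For the DAC slope it gave 0 to 1 higher and 0 lower, and 0 higher without PF382, a fit in which ZNF772 did not pass the filter. The AZA rank trend called 5 higher without a filter (ZNF135 and ZNF470 added), 2 to 4 higher and 0 to 2 lower with a library left out, 0 lower without HH or TLOm1 and 3 lower without PF382. The DAC rank trend gave 1 to 3 higher and 1 to 2 lower with a library left out, 1 higher and 1 lower without HH, 0 higher and 1 lower without PF382, and 0 lower without TLOm1. Its fit without PF382 tested 32 members, and ZNF772 was not among them.

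In PF382, AZA called 2 members by DESeq2 and 0 without a filter, and DAC 2 by DESeq2; in TLOm1, AZA called 1 by DESeq2; between lines, AZA called 2 by the DESeq2 likelihood ratio. Below 1 CPM, 10 members were silent in PF382. With 0.5 CPM as the level reached, 2 silent members reached it in HH with AZA, 3 in PF382 with each drug and 3 in TLOm1 with DAC, and with TMM sizes 2 did in PF382 with each drug, since ZNF772 then counted as silent. Of the values of members called in a test, or at an unadjusted p below 0.05 in the comparison of treated with untreated, under an alternative, 314 kept their direction and their side of the threshold, 60 lost their call and 5 gained one, all with the same direction. No paired analysis was possible because the labels give no replicate numbers; the fits with a block for line already set treated libraries against the untreated library of the same line and set. At these depths a level under 0.25 CPM rests on a few counts.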
